A study of Caenorhabditis elegans with 46 samples.

Results

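The 8 genes of *C. elegans* described here are *ZC434.8*, *Y14H12B.1*, *Y14H12B.2*, *C08C3.4*, *D2045.2*, *atx-2*, *Y55F3BR.7*, and *C34D4.1*. They were selected on the signal values of DRM subunit peaks, because the DRM binding site assigned to them ranked higher in *lin-35* null embryos than in wild-type embryos for some subunits. The 8 genes belong to 6 sites, out of 1418 DRM sites and 1761 genes with an assigned DRM site. *Y14H12B.1* and *Y14H12B.2* share a site, as do *D2045.2* and *atx-2*, so the genes of such a pair have the same values throughout.

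DRM subunits were mapped by ChIP-seq in late embryos, with 1 deposited peak list for each subunit and genotype. The mutant embryos carried *lin-35(n745)*, an allele with an early stop codon that makes no LIN-35 protein, and came from worms grown for 96 h from synchronized L1 larvae in liquid culture. The wild-type embryos were of the N2 strain, from worms grown for 72 h. Embryos of both genotypes were incubated for up to 3.5 h after collection and then frozen, and both are whole embryos with all their cell types mixed. LIN-35 has a list in wild type, and 6 other subunits, named below, have a list in both genotypes.

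DRM is the worm counterpart of the mammalian DREAM complex, which represses cell cycle genes. It joins the DNA-binding heterodimer E2F-DP, made of EFL-1 and DPL-1, to the MuvB subcomplex, to which LIN-54, LIN-52, LIN-37, and LIN-9 belong. The pocket protein LIN-35, related to the retinoblastoma protein, sits between them, and in MuvB it is LIN-54 that contacts DNA, at the CHR element (cell cycle genes homology region). E2F-DP contacts the nearby CDE (cell cycle-dependent element).

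Each peak carries an SPP signal value, a peak height from the caller SPP whose scale is not stated. Signal values were therefore turned into percentiles, the share of peaks in the same list with that signal value or a lower one, so that the highest peak of a list has a percentile of 100. A percentile is a place within a list and not an amount of protein on DNA. The *lin-35* null lists are shorter, with 783 to 1674 peaks against 1771 to 2290 peaks in the wild-type lists of the same 6 subunits. Replicates were pooled in each list, so each value below stands alone, without an error, a read depth, or a test. The legend of a supplementary figure in the study describes the ChIP signal of a *lin-35* null replicate as unusually high beside the others. That replicate is pooled into the mutant lists and could not be left out, so its part in the ranks was not tested. All 18 *lin-35* null libraries of these subunits were made by a newer protocol, whereas 6 of the 16 wild-type libraries in the labels were made by it and 10 were cut from gels. Genotype, library protocol, and culture time cannot be told apart in any difference given here.

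All 6 sites are 500 bp long in genome build ce10, and they lie on 4 of the chromosomes, with none on V or X. The site of *ZC434.8* lies in a promoter at chrI:10349665-10350164. It overlaps none of the embryonic HOT (high occupancy target) regions, where many transcription factors bind together, and it has no mark for any of 3 DRM motifs, namely a de novo motif, a conserved CDE, and a conserved CHR. The site of *Y14H12B.1* and *Y14H12B.2* at chrII:3933782-3934281 lies in a promoter between diverging genes and has the de novo motif only. *C08C3.4* has its site in a promoter at chrIII:7795189-7795688, with CDE and CHR marks. Its reference symbol is *cyk-7*, from the cytokinesis-defective gene class.

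The site of *D2045.2* and *atx-2* at chrIII:10460406-10460905 is also a promoter between diverging genes. It is the only one of the 6 in a HOT region, and it has no mark for the 3 motifs. *atx-2* encodes the worm ataxin-2, an RNA-binding protein of translational control in the germline, and *D2045.2* has the reference symbol *ecps-1*, after the proteasome adaptor ECM29. *Y55F3BR.7* has its site in a promoter at chrIV:842027-842526, with all 3 motif marks. The site of *C34D4.1*, named *maph-9* after microtubule-associated protein 9, lies in an intron at chrIV:7159523-7160022 and has CDE and CHR marks.

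The 6 sites thus share no motif mark. CDE and CHR marks stood together at 3 of them, and 40.1% of all DRM sites have both. No mark at all stood at 2 of them, against 15.9% of all DRM sites. A promoter or a promoter between diverging genes held 5 of the 6, the classes of 48.5% and 29.8% of all DRM sites, and 10.4% of all DRM sites lie in introns.

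Every one of the 6 sites had a peak in all 13 lists, which is true of 568 of the 1418 DRM sites. Of the 36 pairs of a site and a subunit, 34 had a higher percentile in *lin-35* null. Over all DRM sites with both peaks, 31.7% of 4982 pairs were higher. A difference of at least 20 points was taken as large, and 33 of the 36 pairs reached it, against 5.48% of all pairs. A wild-type peak less than 20 points below the top of its list cannot reach it. The 568 sites had a median wild-type percentile of 83.7, and no subunit compared at the 6 sites was above 69.7. Since the sites were picked for higher ranks, these counts describe the choice. The size of a difference also moves with the ranking, because the 2 lists of a subunit differ in length. Ranked only among DRM sites with a peak in both lists of the subunit, 36 of the 36 pairs were higher, by 9.02 to 82.4 points, and so were 55.0% of all pairs. Large differences were then more common everywhere, with 34 of the 36 pairs at least 20 points higher, against 22.4% of all pairs. All differences below are in full-list percentiles unless this shared-site ranking is named.

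**Figure D1:**
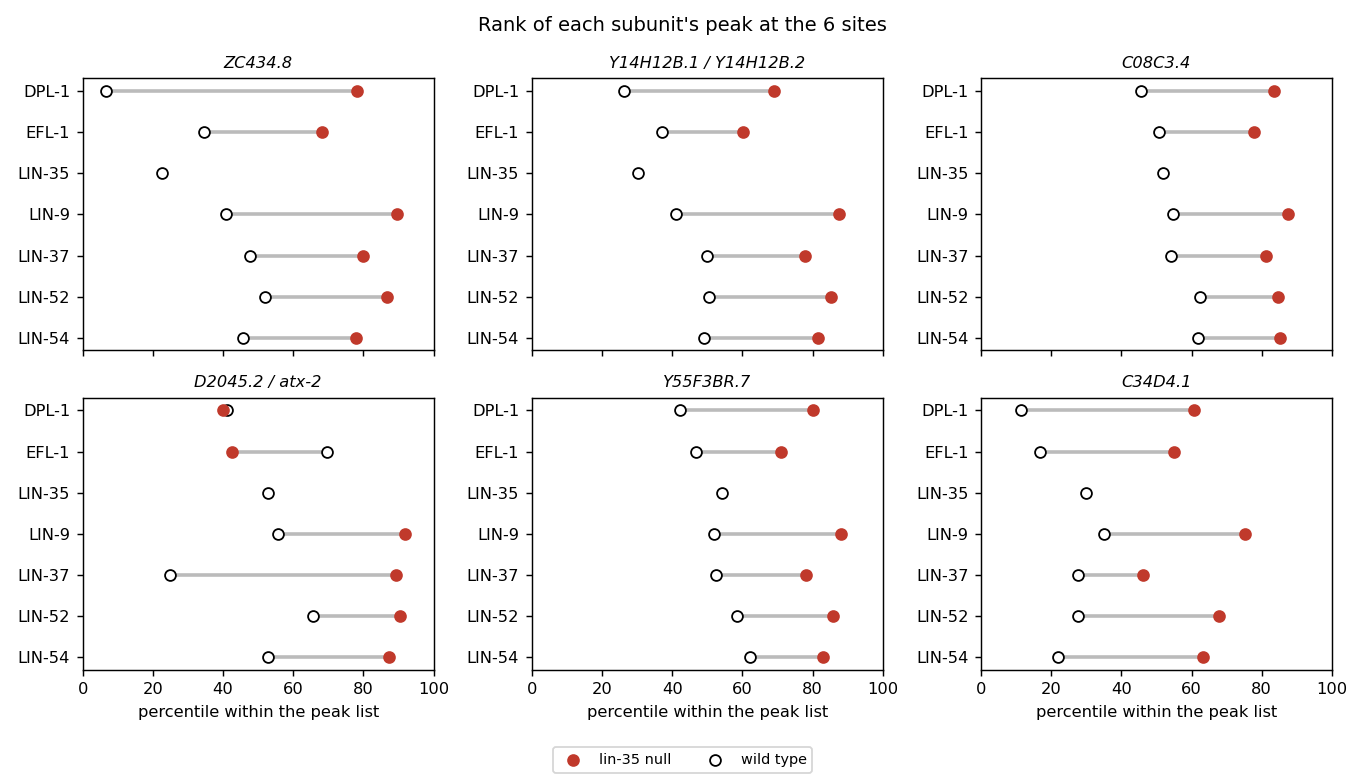
Percentile of the signal value within its peak list (x axis, 0 to 100) for each subunit (rows) at the 6 sites, in *lin-35* null (filled red) and wild type (open). Grey lines join the 2 values of a subunit, and LIN-35 has a wild-type value only. The red points lie to the right at all sites, except for DPL-1 and EFL-1 at the site of *D2045.2* and *atx-2*.

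At the site of *ZC434.8*, the DPL-1 peak stood at percentile 78.2 in *lin-35* null and 6.66 in wild type. This difference of 71.5 points was the highest for DPL-1 among the 802 DRM sites with both peaks. The deposited signal values of these peaks were 2187 in *lin-35* null and 246 in wild type. The wild-type value was close to the lowest of its list, 218.5, and this pair is lost when the lowest 25% of each list is left out. EFL-1, the partner of DPL-1, stood at percentile 68.3 in *lin-35* null and 34.5 in wild type, so the E2F-DP subunits were far apart in wild type and closer in the mutant. Among MuvB subunits, LIN-9 stood at 89.7 in *lin-35* null and 40.9 in wild type. LIN-37 stood at 79.9 in *lin-35* null and 47.6 in wild type. LIN-52 reached 86.8 in *lin-35* null, against 51.9 in wild type, and LIN-54 reached 77.9, against 45.6. The MuvB peaks of this promoter were thus near the middle of the wild-type lists and at percentile 77.9 or above in the mutant lists, and their differences lay between 32.2 and 48.7 points.

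The site shared by *Y14H12B.1* and *Y14H12B.2* had a similar order. DPL-1 stood at percentile 69.1 in *lin-35* null and 26.4 in wild type, and EFL-1 at 60.0 in *lin-35* null and 37.1 in wild type. The EFL-1 difference of 22.9 points was the smallest of the 6 subunits here. LIN-9 stood at 87.6 in *lin-35* null and 41.0 in wild type, and LIN-37 at 77.9 in *lin-35* null and 49.8 in wild type. LIN-52 stood at 85.4 in *lin-35* null and 50.4 in wild type, and LIN-54 at 81.5 in *lin-35* null and 49.1 in wild type. All 4 MuvB subunits ranked above both E2F-DP subunits, in the mutant and in wild type alike.

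At *C08C3.4* the mutant percentiles were the most alike, between 77.8 for EFL-1 and 87.6 for LIN-9. DPL-1 stood at 83.6 in *lin-35* null and 45.7 in wild type, and EFL-1 at 77.8 in *lin-35* null and 50.6 in wild type. These were the highest mutant percentiles of DPL-1 and EFL-1 over the 6 sites. LIN-9 stood at 87.6 in *lin-35* null and 54.8 in wild type, and LIN-37 at 81.1 in *lin-35* null and 54.2 in wild type. LIN-52 stood at 84.6 in *lin-35* null and 62.4 in wild type, and LIN-54 at 85.1 in *lin-35* null and 61.8 in wild type. The differences ran from 22.2 points for LIN-52 to 37.9 points for DPL-1. They ran from 50.3 points for LIN-52 to 65.4 points for EFL-1 in the shared-site ranking.

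*Y55F3BR.7*, the other site with CDE and CHR marks in a promoter, was close to this. DPL-1 stood at 80.2 in *lin-35* null and 42.2 in wild type, and EFL-1 at 70.9 in *lin-35* null and 46.6 in wild type. LIN-9 stood at 88.0 in *lin-35* null and 51.8 in wild type, and LIN-37 at 77.99 in *lin-35* null and 52.4 in wild type. LIN-52 stood at 86.0 in *lin-35* null and 58.4 in wild type, and LIN-54 at 83.1 in *lin-35* null and 62.2 in wild type. Every difference lay between 20.9 and 38.0 points, with DPL-1 at the upper end as at *C08C3.4* in these percentiles.

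The intronic site of *C34D4.1* was low in wild type and of middle rank in the mutant. DPL-1 stood at 60.6 in *lin-35* null and 11.3 in wild type, and EFL-1 at 54.9 in *lin-35* null and 16.7 in wild type. LIN-9 stood at 75.2 in *lin-35* null and 35.1 in wild type, and LIN-52 at 67.8 in *lin-35* null and 27.7 in wild type. LIN-54 stood at 63.3 in *lin-35* null and 21.9 in wild type, and LIN-37 at 46.1 in *lin-35* null and 27.8 in wild type. LIN-37 was the subunit that moved least here, by 18.3 points, the only positive difference under 20 points among the 36 pairs. The median over the 6 subunits, 40.1 points, was the highest of the 568 sites with a peak in all 13 lists. By shared-site ranking the median was 48.4 points, the lowest of the 6 sites and at place 10 of the 568.

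The site of *D2045.2* and *atx-2* differed by subcomplex. DPL-1 stood at percentile 39.9 in *lin-35* null and 41.1 in wild type, a difference of -1.21 points. EFL-1 stood at 42.7 in *lin-35* null and 69.7 in wild type, a difference of -27.0 points, and its signal value was 945 in *lin-35* null and 1358 in wild type. DPL-1 thus hardly moved and EFL-1 ranked lower in the mutant at this promoter. LIN-9 stood at 91.9 in *lin-35* null and 55.8 in wild type, and LIN-52 at 90.5 in *lin-35* null and 65.7 in wild type. LIN-54 stood at 87.2 in *lin-35* null and 52.8 in wild type, and LIN-37 at 89.2 in *lin-35* null and 24.8 in wild type. For each of the 4 MuvB subunits this was the highest mutant percentile of the 6 sites.

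At this site the mean difference was 39.9 points over the MuvB subunits and -14.1 points over E2F-DP. Higher ranks of all 4 MuvB subunits with lower ranks of both E2F-DP subunits were found at 39 of the 568 sites with all peaks, or 6.87%, and the site of *D2045.2* and *atx-2* had the highest MuvB mean of them. Its gap between the means was not the largest of the 39. HOT regions held 29 of the 39, against 238 of the 568. The direction of E2F-DP rests on the ranking. In the shared-site ranking DPL-1 was 18.2 and EFL-1 9.02 points higher in *lin-35* null, and 13 sites, not this one, had the mixed pattern. The MuvB subunits were higher under both rankings.

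**Figure D2:**
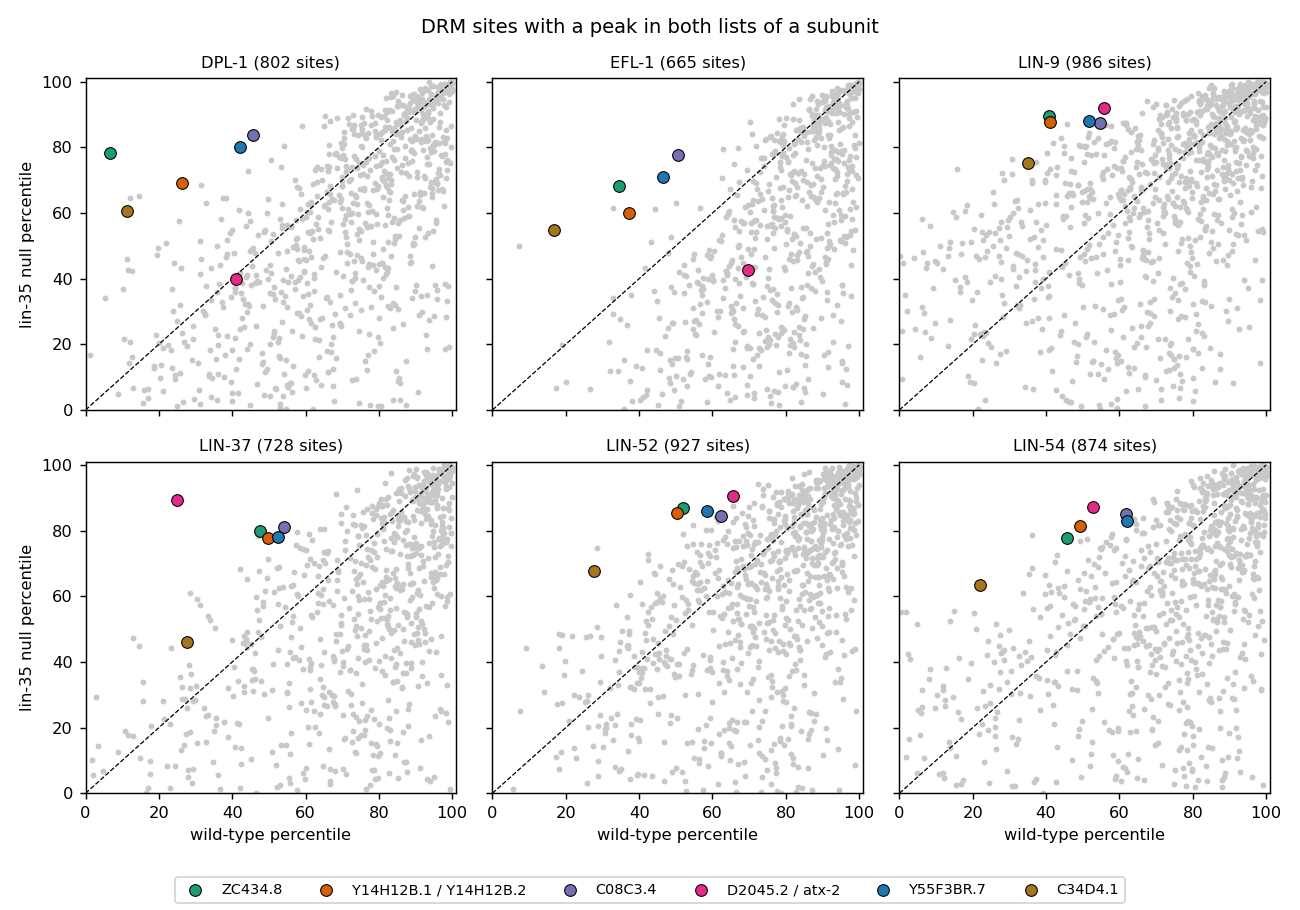
Percentile in *lin-35* null (y axis) against percentile in wild type (x axis) for each subunit, over all DRM sites with a peak in both lists (grey) and the 6 sites (coloured). The dashed line marks equal percentiles. Of the 36 coloured points 34 lie above it, and those below are DPL-1 and EFL-1 at the site of *D2045.2* and *atx-2*.

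By subunit, DPL-1 and EFL-1 were higher at 5 of the 6 sites, against 29.3% and 15.6% of all DRM sites with both peaks. The MuvB subunits were higher at all 6, where the share of all DRM sites was 46.1% with LIN-9, 33.8% with LIN-54, 32.8% with LIN-52, and 25.8% with LIN-37. Differences of at least 20 points were found at 5 sites for DPL-1, EFL-1, and LIN-37, against 3.99%, 1.05%, and 2.75% of all DRM sites with both peaks. They were found at all 6 sites for LIN-9, against 13.5%, for LIN-52, against 3.88%, and for LIN-54, against 5.15%. These shares include peaks less than 20 points below the top of the wild-type list, which could not rise that far. The median difference over the 6 sites was 40.4 points for DPL-1 and 25.7 points for EFL-1. For MuvB it was 38.1 points for LIN-9, 27.5 points for LIN-37, 31.2 points for LIN-52, and 32.3 points for LIN-54. Over all DRM sites with both peaks, the median difference was below 0 for each subunit, between -20.1 points for EFL-1 and -1.49 points for LIN-9. In the shared-site ranking that direction turned, with medians over all DRM sites between 2.34 points for LIN-37 and 3.31 points for EFL-1. The medians over the 6 sites then lay between 53.8 points for LIN-54 and 58.98 points for DPL-1.

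The percentiles are ranks of the deposited signal values, so these values are the same measure and no separate support, and their scale need not be the same in different lists. They were higher in *lin-35* null for 35 of the 36 pairs, against 28.1% of all pairs, and EFL-1 at the site of *D2045.2* and *atx-2* was the exception. The median ratio of *lin-35* null over wild type at the 6 sites was lowest for LIN-37, at 2.66, and highest for EFL-1, at 5.50. Over all DRM sites these ratios were 0.467 for LIN-37 and 0.765 for EFL-1. At *ZC434.8* the ratio for DPL-1 was 8.89, the highest of the 36, followed by 7.90 for LIN-37 at *D2045.2* and *atx-2*. The latter sets a mutant peak at the middle of the site, with a value of 2242, over a wild-type peak 204 bp away, with 284. The mutant LIN-37 peak nearest to that wild-type peak had a value of 905, so a ratio there would be smaller.

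LIN-9 had the highest mutant percentile of the 6 subunits at every one of the 6 sites. Its mutant list is the longest, with 1674 peaks, and a place near the top of a longer list gives a higher percentile. Counted as ranks from the top of the list, LIN-9 was first at *ZC434.8* only, at rank 174. The best rank belonged to LIN-52 at *Y14H12B.1* and *Y14H12B.2* and at *Y55F3BR.7*, to DPL-1 at *C08C3.4*, to LIN-37 at *D2045.2* and *atx-2*, and to EFL-1 at *C34D4.1*. The order of subunits at a site therefore differed between percentiles and ranks from the top, and what sets it was not tested. List length also enters each comparison between genotypes, with 783 EFL-1 peaks in *lin-35* null against 2119 in wild type, for example.

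LIN-35 itself, measured in wild type only, was of low to middle rank at the 6 sites. Its percentile was 22.7 at *ZC434.8*, 29.9 at *C34D4.1*, and 30.3 at *Y14H12B.1* and *Y14H12B.2*. It was 51.9 at *C08C3.4*, 52.9 at *D2045.2* and *atx-2*, and 54.1 at *Y55F3BR.7*. The 6 sites thus fell into a lower and a middle set, with a gap between 30.3 and 51.9, and their median was 41.1. The median over all DRM sites was 68.6, and 30.5% of DRM sites lay at or below the highest of the 6. LIN-35 goes with the wild-type ranks of the other subunits, which chose the sites, so its low rank is not a separate finding.

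Peaks of similar wild-type rank were set beside those of the 6 sites. For DPL-1, 447 other DRM sites had a wild-type percentile within the range of the 6, and 130 of them, or 29.1%, had a *lin-35* null peak, with a median mutant percentile of 28.6. For LIN-9 the share was 47.4%, with a median mutant percentile of 52.7. The 6 sites had a median mutant percentile of 73.7 for DPL-1 and 87.8 for LIN-9. LIN-9 had the highest share of the 6 subunits and EFL-1 the lowest, 24.3%. Most other sites of this wild-type rank thus had no mutant peak, and all 6 sites had one by their choice. The higher mutant percentiles of the 6 sites describe the choice as well.

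**Figure D3:**
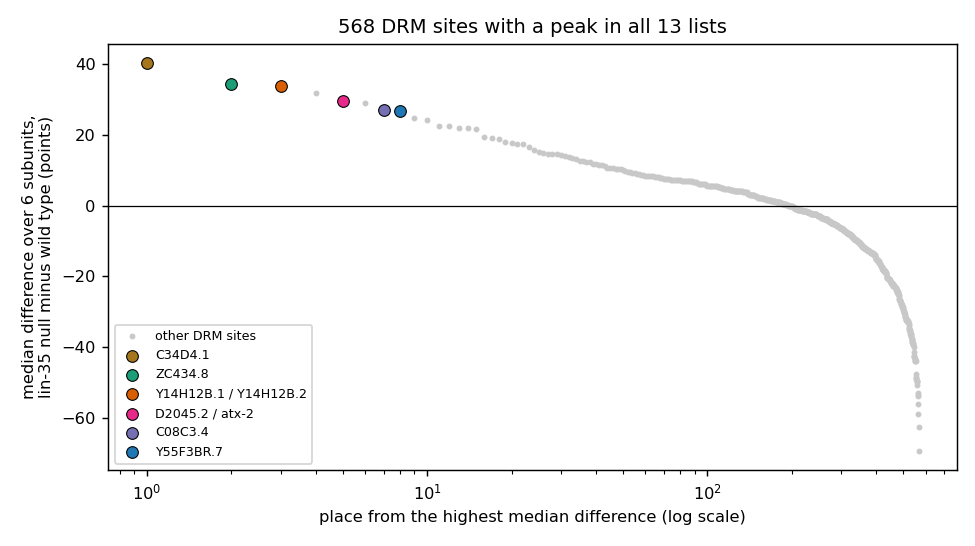
Median over 6 subunits of the percentile in *lin-35* null minus that in wild type (y axis, points) for the 568 DRM sites with a peak in all 13 lists, ordered from the highest (x axis, log scale). The 6 sites (coloured) take places 1, 2, 3, 5, 7, and 8, and the median over all 568 sites is -5.30 points.

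By the median over the 6 subunits, the 6 sites took places 1, 2, 3, 5, 7, and 8 of the 568 sites. Many of the 568 had little room to rise, with a median wild-type percentile of 83.7. The order was *C34D4.1* with 40.1 points, *ZC434.8* with 34.4 points, *Y14H12B.1* and *Y14H12B.2* with 33.7 points, *D2045.2* and *atx-2* with 29.6 points, *C08C3.4* with 27.1 points, and *Y55F3BR.7* with 26.6 points. Neighbours in this order can lie within 1 point of each other, and no error is at hand to part them. In the shared-site ranking the order changed to *ZC434.8* with 62.3 points, *D2045.2* and *atx-2* with 57.1 points, *Y14H12B.1* and *Y14H12B.2* with 56.97 points, *Y55F3BR.7* with 56.1 points, *C08C3.4* with 55.7 points, and *C34D4.1* with 48.4 points. These are places 1, 2, 3, 5, 6, and 10 of the 568, whose median was then 5.72 points. The rule for choosing the genes set no threshold, and sites of like rise were not chosen. The site of *mrp-7* had 31.7 points, at place 4, and that of *ubq-2* and *frg-1* had 29.0 points, at place 6. The next below the 6 were *egg-5* with 24.8 points, *Y50D7A.4* with 24.2 points, and *mex-1* and *W03C9.5* with 22.4 points.

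All 6 subunits were higher at 5 of the 6 sites, against 10.9% of the 568 sites, and 40.0% of the 568 had no subunit higher. By shared-site ranking, all 6 sites and 234 of the 568 had every subunit higher. The 62 sites with all subunits higher in full-list percentiles had a median LIN-35 percentile of 85.2, close to the 85.1 of all 568 sites. Both medians were far above the 22.7 to 54.1 of the 6 sites. These LIN-35 values go with the wild-type ranks that chose the 6 sites and are no separate finding. *mrp-7* was like the 6 in both respects, with 6 of 6 subunits higher and a LIN-35 percentile of 34.2. Its site lies between genes on chromosome V and, as at *ZC434.8*, has no motif mark. At *ubq-2* and *frg-1* 5 subunits were higher, with a mean difference of 37.03 points over MuvB and -7.02 points over E2F-DP.

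The sites most like the 6 by all 12 percentiles were found by their root mean square distance from the median of the 6. They were *F58A4.2* at 7.24 points, *R01H2.7* at 7.67 points, *mrp-7* at 7.99 points, *lst-4* at 8.93 points, and *K07B1.6* at 10.2 points. The 6 sites themselves lay between 3.80 points for *Y14H12B.1* and *Y14H12B.2* and 21.4 points for *C34D4.1*. *C34D4.1* and the site of *D2045.2* and *atx-2*, at 16.8 points, were thus farther from the common pattern than the 5 sites outside the choice.

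Peak positions were not used in choosing the genes. The summit is the highest point of a peak, and in these lists it is always the middle of the interval. The *lin-35* null and wild-type summits of a subunit lay a median of 9.5 bp apart at the 6 sites, and 35 of 36 pairs were at most 50 bp apart. Over all 4982 pairs the median was 10.0 bp, and 93.9% were at most 50 bp apart. The mutant peaks of the 6 sites therefore stood at the wild-type positions with 1 exception, LIN-37 at *D2045.2* and *atx-2*, whose summits were 200.0 bp apart.

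**Figure D4:**
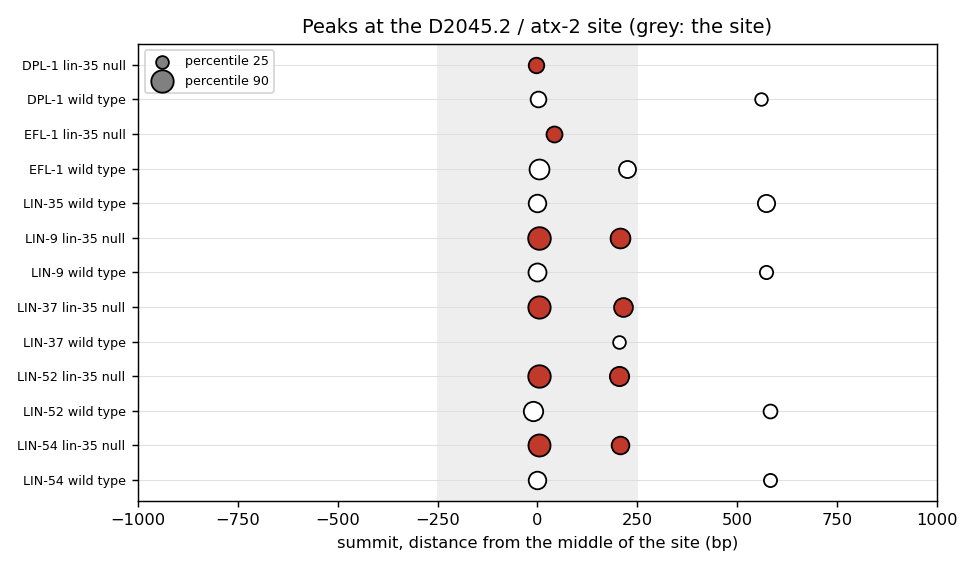
Peak summits within 1000 bp of the middle of the site of *D2045.2* and *atx-2* (x axis, distance in bp) in each of the 13 lists (rows), in *lin-35* null (filled red) and wild type (open), with point area rising with the percentile. The mutant MuvB lists have a second summit at 204 to 214 bp, and the peaks at 559 to 583 bp are in wild-type lists only.

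The site of *D2045.2* and *atx-2* held 23 peaks within 1000 bp of its middle over the 13 lists, against 13 or 14 at each of the others. Those others lie outside HOT regions, and no such count over all DRM sites or HOT regions is at hand. All 4 MuvB lists of *lin-35* null had a peak at the middle and a second at 204 to 214 bp from it. In wild type a peak at that second position was listed for EFL-1, at 224 bp, and for LIN-37, at 204 bp, and LIN-37 had none at the middle. The LIN-37 values above therefore compare different summits. The mutant LIN-37 peak nearest to the wild-type summit had a percentile 36.99 points above it, in place of 64.4 points, a choice made after the summits were seen.

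Farther out, 5 wild-type lists, those of DPL-1, LIN-35, LIN-9, LIN-52, and LIN-54, had a peak at 559 to 583 bp from the middle of the *D2045.2* and *atx-2* site. They were of low to middle rank, between percentile 24.4 for DPL-1 and 50.6 for LIN-35. No *lin-35* null list had a peak there, and LIN-35 has no such list. A missing mutant peak is common at such ranks. Among other DRM sites in the wild-type range of the 6, 29.1% had a mutant peak for DPL-1, 38.5% for LIN-54, and 44.6% for LIN-52. Second peaks at the other sites were few, with LIN-9 in *lin-35* null at 211 bp at *Y14H12B.1* and *Y14H12B.2*, LIN-9 in *lin-35* null at 209 bp at *Y55F3BR.7*, and LIN-52 in wild type at 860 bp at *ZC434.8*.

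**Figure D5:**
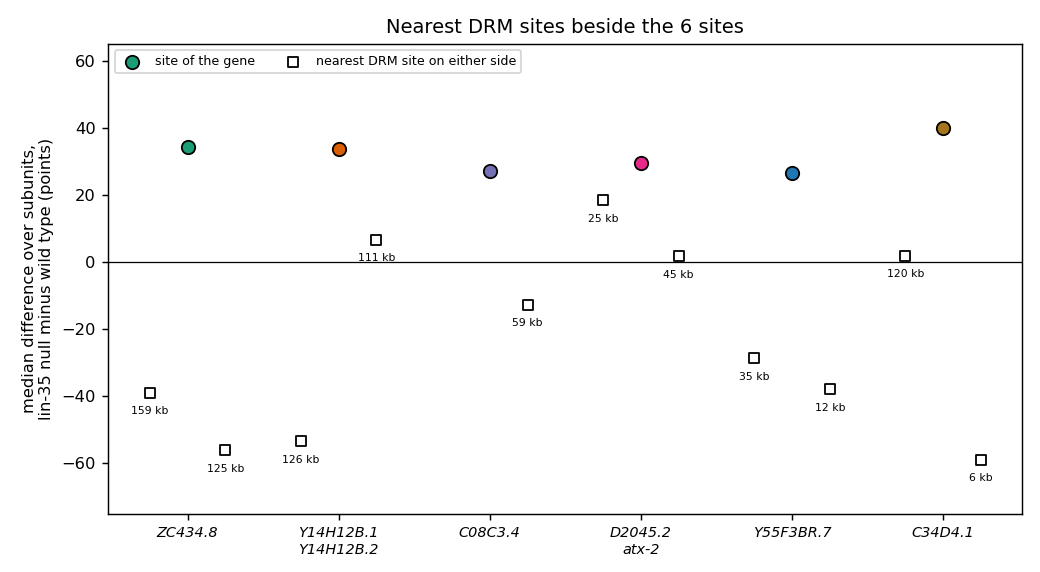
Median difference in percentile over the subunits with both peaks, *lin-35* null minus wild type (y axis, points), at the 6 sites (coloured circles) and at the nearest DRM site on either side (open squares, with the distance in kb). The circles lie between 26.6 and 40.1 points, and the squares between -58.9 and 18.4 points. The left neighbour of *C08C3.4* has no mutant peak and no square.

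The 6 sites were picked for higher ranks and their neighbours were not, so the contrast between them describes the choice. The 12 sites next to the 6 on the same chromosome lie 6.14 to 159 kb away, and 16 of their 51 pairs with both peaks were higher in *lin-35* null. This is 31.4%, close to the 31.7% of all pairs, and 1 pair was higher by at least 20 points. In the shared-site ranking 21 of the 51 pairs, or 41.2%, were higher, against 55.0% of all pairs, and the medians of the neighbours lay between -62.3 and 37.1 points. The nearest, the site of *C42D4.18* and *rpc-1* at 6.14 kb from *C34D4.1*, had both peaks for 1 subunit, with a difference of -58.9 points. The site of *Y55F3BR.8*, 12.2 kb from *Y55F3BR.7*, had a median of -37.8 points over 6 subunits and none higher.

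Some neighbours ranked higher for several subunits. At *H04D03.1* and *M03C11.8*, 24.6 kb away, all 4 subunits with both peaks were higher, with a median of 18.4 points. At *urm-1* and *taf-11.3*, 44.6 kb to the other side, 2 of 4 were higher, with a median of 1.71 points. On the far side of *C34D4.1*, *klp-18* and *cogc-2* at 120 kb were higher for 4 of 6 subunits, with a median of 1.88 points. *rpn-11*, at 111 kb from *Y14H12B.1* and *Y14H12B.2* and named for a proteasome subunit, was higher for 6 of 6 subunits, with a median of 6.71 points. On the other side of that site, *F54D10.5* had a median of -53.4 points. Next to *C08C3.4*, the site of *lin-13* had no *lin-35* null peak for any subunit. Both neighbours of *ZC434.8*, *dao-5* and the site of *Y106G6H.15* and *Y106G6H.16*, were lower for every subunit with both peaks.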

How the data were processed

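The 46 samples in the labels are ChIP and input libraries of late embryos, 16 wild-type and 18 *lin-35* null ChIP libraries among them for the 6 subunits compared. Reads were mapped by the authors to ce10 with Bowtie 1.1.2. They called peaks with SPP against input and filtered them at an IDR of 1% over pooled replicates. Each peak in the deposited lists has a signal from SPP, made by the authors on a scale not given in the sources used here. The deposited −log10 q-value, which rarely varies within a list, served no purpose here. The wild-type LIN-37 list also rests on libraries of an earlier series, not analysed here. Read depth is unknown, since no deposited column holds counts.

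Sites, HOT and motif marks, and gene assignments came from the study's supplementary tables, and symbols from the reference gene tables, where 7 of 8 genes matched. Columns of the authors' comparisons, which hold log ratios and test values, were not used. Percentiles were taken within lists, and the highest peak overlapping a site by at least 1 bp stood for it. Python 3.11.15 with numpy 2.4.6 and matplotlib 3.10.9 was used, and the matching was tested on simulated data, where 974 of 974 sites were recovered. Each of these sites stood apart and had a single simulated peak near its middle, so the choice among several peaks was not tested. Named besides the 8 genes are the nearest DRM site on each side, the 5 sites most alike, and the 5 with the largest other rises. Ranking, list length, overlap, peak choice, threshold, scale, and HOT sites were varied. Genes and lists were chosen with earlier results of these data known. No sequence is printed, as no ce10 sequence was used here.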

Additional observations from a re-analysis of the deposited data

Results flagged for a closer look

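At the site of *D2045.2* and *atx-2*, the mean percentile difference of the 4 MuvB subunits exceeded that of DPL-1 and EFL-1 by 54.03 points, since every MuvB subunit was higher and both E2F-DP subunits were lower in *lin-35* null. This gap was not the largest among the 39 sites with that pattern. At another of them the means were 18.1 points over MuvB and -51.6 points over E2F-DP. Ranked among shared DRM sites, both E2F-DP subunits were higher and the gap was 51.2 points. Both gaps include LIN-37, whose mutant and wild-type values here come from different summits. With matched summits its full-list difference was 36.99 points in place of 64.4 points, so the gap would be smaller. The difference between the subcomplexes was not tested, because each subunit has 1 pooled list per genotype.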

How the results depend on the processing

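No paired analysis was possible because each list pools its replicates, and for the same reason no replicate could be left out. Of 36 pairs, 34 were higher in *lin-35* null. The count was 34 with an overlap of at least 50%, against 31.8% of all pairs. It was 34 with the peak nearest to the middle, against 31.7%, and with matched summits, against 31.5%. Matched summits were a setting chosen after seeing the data. These settings left the differences at the 6 sites unchanged, except LIN-37 at *D2045.2* and *atx-2* with matched summits. The count was 36 of 36 ranked among shared DRM sites, where 55.0% of all pairs were higher, and 35 of 36 as log2 over the list median, against 19.3%. It was 29 of 31 without the lowest 25% of each list, against 34.7% of all pairs, and 30 of 30 outside HOT regions, against 54.2%. Sizes moved more than signs. Over all settings and single pairs, 108 of 258 differences moved beyond the counting error of the percentiles. Most of the others came from settings that left the ranking unchanged, or were log2 values on another scale. Among shared sites, 24 of the 36 differences were over 1.5 times the full-list difference. The median for *C34D4.1*, the highest in full-list percentiles, was the lowest of the 6 among shared sites and of the 5 outside HOT regions, at 48.4 and 50.9 points, and the third by log2, at 1.47 against 1.604 for *ZC434.8*. With both lists of a subunit cut to equal length, 17 pairs had both peaks and all 17 were higher, against 54.8% of all pairs. At *D2045.2* and *atx-2* the sign of E2F-DP turned. DPL-1 was 18.2 and EFL-1 9.02 points higher among shared sites, EFL-1 was 24.8 points higher at equal length, and DPL-1 was 0.076 higher as log2 over the list median. The median LIN-35 percentile, 41.1, was 35.8 over the 5 sites left without the lowest 25%, and 18.5 among DRM sites only. The causes were not tested. Pooled lists without replicate values or counts give no error, and depth cannot be set beside any value.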
